A study of Mus musculus with 35 samples.

Results

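The matrix metalloproteinases, the ADAMTS proteases and their TIMP inhibitors were followed in adipocyte cultures from mouse inguinal fat, as every measured transcript cluster (the set of probes for 1 gene on the array) with a single gene symbol that starts with Mmp or Timp and a digit, or with Adamts. This rule gave 42 clusters for 40 genes, out of 17958 clusters in all and 15621 with 1 symbol. They are 20 Mmp genes, 4 Timp genes, 12 Adamts genes and 4 Adamts-like genes, the last with 6 clusters because Adamtsl1 has 3. All values are log2 intensities as deposited by the authors, so that a difference of 1 is a doubling, and each comparison is a log2 change with its standard error (SE).

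Matrix metalloproteinases (MMPs) and ADAMTS enzymes are zinc proteases that act outside the cell or at its surface and cut collagens, proteoglycans and other matrix proteins. Most are made as inactive precursors that other proteases open, and the tissue inhibitors of metalloproteinases (TIMPs) block the active enzymes by binding to their catalytic site. In fat tissue the matrix around each precursor cell is remodelled as the cell rounds up and fills with lipid, and MMP14, a protease anchored in the cell membrane, is known to be needed for white fat to expand through its collagen network. ADAMTS-like proteins share the outer domains of the ADAMTS enzymes but have no protease domain.

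The 35 arrays came from primary adipocyte precursors of SV129 and C57BL/6J mice, isolated from inguinal subcutaneous fat and differentiated in culture, with RNA from each culture on 1 Mouse Exon 1.0 ST array. Untreated cultures were collected at day 3 (4 SV129 and 4 C57BL/6J arrays) and at day 7 (the controls, 4 and 4), and treated cultures at day 7, after 1 µM rosiglitazone (ROSI, an activator of the receptor PPARG; 5 SV129 and 4 C57BL/6J) or 1 µM norepinephrine (NE, which acts on adrenergic receptors; 5 and 5). The study's methods place rosiglitazone in the medium from the first day of culture and do not describe norepinephrine. Whether the exposures to the drugs were equally long is therefore not known here. One note in the labels names rosiglitazone and norepinephrine alike for all cultures, and the groups here follow the separate treatment label of each. The labels give no age or sex of the mice and do not say whether the cultures of a group came from separate mice, so p-values measure the spread between these arrays, which may be technical. The cultures are mixtures of cells: fewer cells of a type and less RNA per cell cannot be told apart in them.

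Array medians lay between 8.03 and 8.24, and a cluster below an array's lower quartile (6.37 to 6.52) was treated as dim. By that measure 5 of the 42 clusters were dim on all 35 arrays (Mmp1a, Mmp1b, Mmp7, Mmp20 and Adamts20), 7 on some (among them Mmp8, Mmp16 and Adamts19) and 30 on none. Of 9 measured fat cell markers, 8 had a mean above the lower quartile in every group (Lep was the exception), as did 7 of 7 precursor markers, while 7 of 9 neutrophil markers were dim in every group. On the main axis of variation between control and ROSI arrays, scaled so that the controls average 0 and the ROSI arrays other than these 2 average 1, SV129 ROSI replicate 1 lay at 0.1 and replicate 6 at 0.459, against 0.879 to 1.09 for the remaining ROSI arrays. SV129 control replicates 5 and 6 also stood apart from replicates 1 and 4 for several members. For several of the members in which these arrays stood apart, values without them are given as well. Both pairs were chosen after their values were seen. SV129 ROSI replicates 1 and 6 lay nearest the controls, so leaving them out favours larger changes, smaller SE and more calls by the choice itself. Values without them describe the remaining arrays and are not firmer evidence.

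Of the members, 9 are Mmp genes that lie in a row on chromosome 9, among them Mmp3, Mmp12 and Mmp13, whose changes with ROSI or at day 7 were large. The bases before the start sites of 6 genes of the row are shown for this reason. In the order of the RefSeq annotation (GRCm38.p6) this row is Mmp13, Mmp12, Mmp1b, Mmp3, Mmp1a, Mmp10, Mmp8, Mmp27, Mmp20 and Mmp7, of which Mmp27 was not analysed here. The stretches are the 100 bases before the annotated start, from RefSeq, all on the plus strand, and capitals mark the letters TGAGTCA or TGACTCA, which are reverse complements of each other and the preferred site of AP-1, the family of FOS and JUN transcription factors long known to act on collagenase and stromelysin promoters.
Mmp13, chr9:7272414-7272513: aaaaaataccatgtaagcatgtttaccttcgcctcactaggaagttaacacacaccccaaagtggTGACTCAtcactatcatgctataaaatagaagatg
Mmp12, second annotated start, chr9:7347274-7347373: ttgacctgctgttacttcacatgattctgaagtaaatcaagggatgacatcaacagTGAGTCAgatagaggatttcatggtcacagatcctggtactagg
Mmp3, chr9:7445722-7445821: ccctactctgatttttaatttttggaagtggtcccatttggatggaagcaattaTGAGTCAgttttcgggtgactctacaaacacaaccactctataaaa
Mmp1a, chr9:7464041-7464140: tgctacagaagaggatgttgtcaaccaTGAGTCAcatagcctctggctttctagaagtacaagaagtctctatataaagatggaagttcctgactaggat
Mmp10, chr9:7502242-7502341: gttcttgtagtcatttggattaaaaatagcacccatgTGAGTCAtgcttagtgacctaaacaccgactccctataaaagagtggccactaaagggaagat
Mmp8, chr9:7558329-7558428: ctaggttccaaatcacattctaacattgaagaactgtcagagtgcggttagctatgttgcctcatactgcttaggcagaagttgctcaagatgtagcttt

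The letters were searched on both strands in windows of 300 bases, from 250 bases before to 50 bases after each start. They occurred in 7 of the 9 measured Mmp genes of this row (all but Mmp8 and Mmp20), for Mmp12 only before its second annotated start. Counted by window, 7 of the 11 of this row (63.6%) held them, against 1709 of all 32851 RefSeq windows of this length (5.2%). Counted by gene, 1607 of all 27025 genes had a window with them. RefSeq windows matched 27 of the 40 genes, with 30 windows, and outside the row none of these windows held the letters. The genes without a window all lie outside the row and were not searched. They include Mmp2, Mmp9, Mmp16, Adamts5, Adamts7 and Adamtsl1, so the letters cannot be called particular to the row. A match describes the sequence only. Mmp8, without these letters in its window, was lower with ROSI like Mmp3, Mmp10, Mmp12 and Mmp13, and Mmp1a, with them, was dim on all arrays.

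The first comparison asked how the members differed between cultures with ROSI (n = 9) and controls (n = 8) at day 7, with strain in the model. With ROSI, 19 of the 42 clusters were lower and 1 was higher at an adjusted p under 0.01 (limma, all 17958 clusters tested), and 22 did not pass. Over all clusters 11.6% were lower and 16.3% were higher, so that the share of lower clusters was 45.2% among the members. The split of all calls moved with scaling, from 58.4% higher as deposited to 45.7% after quantile normalization and 47.3% after centring each array on its median, and under both 22 members were lower and 1 higher. The median log2 change of the 42 clusters was -0.20, against 0.01 over all clusters. By family, 10 of 20 Mmp genes, 3 of 4 Timp genes, 3 of 12 Adamts genes and 3 of 6 Adamts-like clusters (all of Adamtsl1) were lower, and the single rise was Mmp28. The plot of changes by cluster shows these calls beside those for day 7 and NE.

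**Figure D1:**
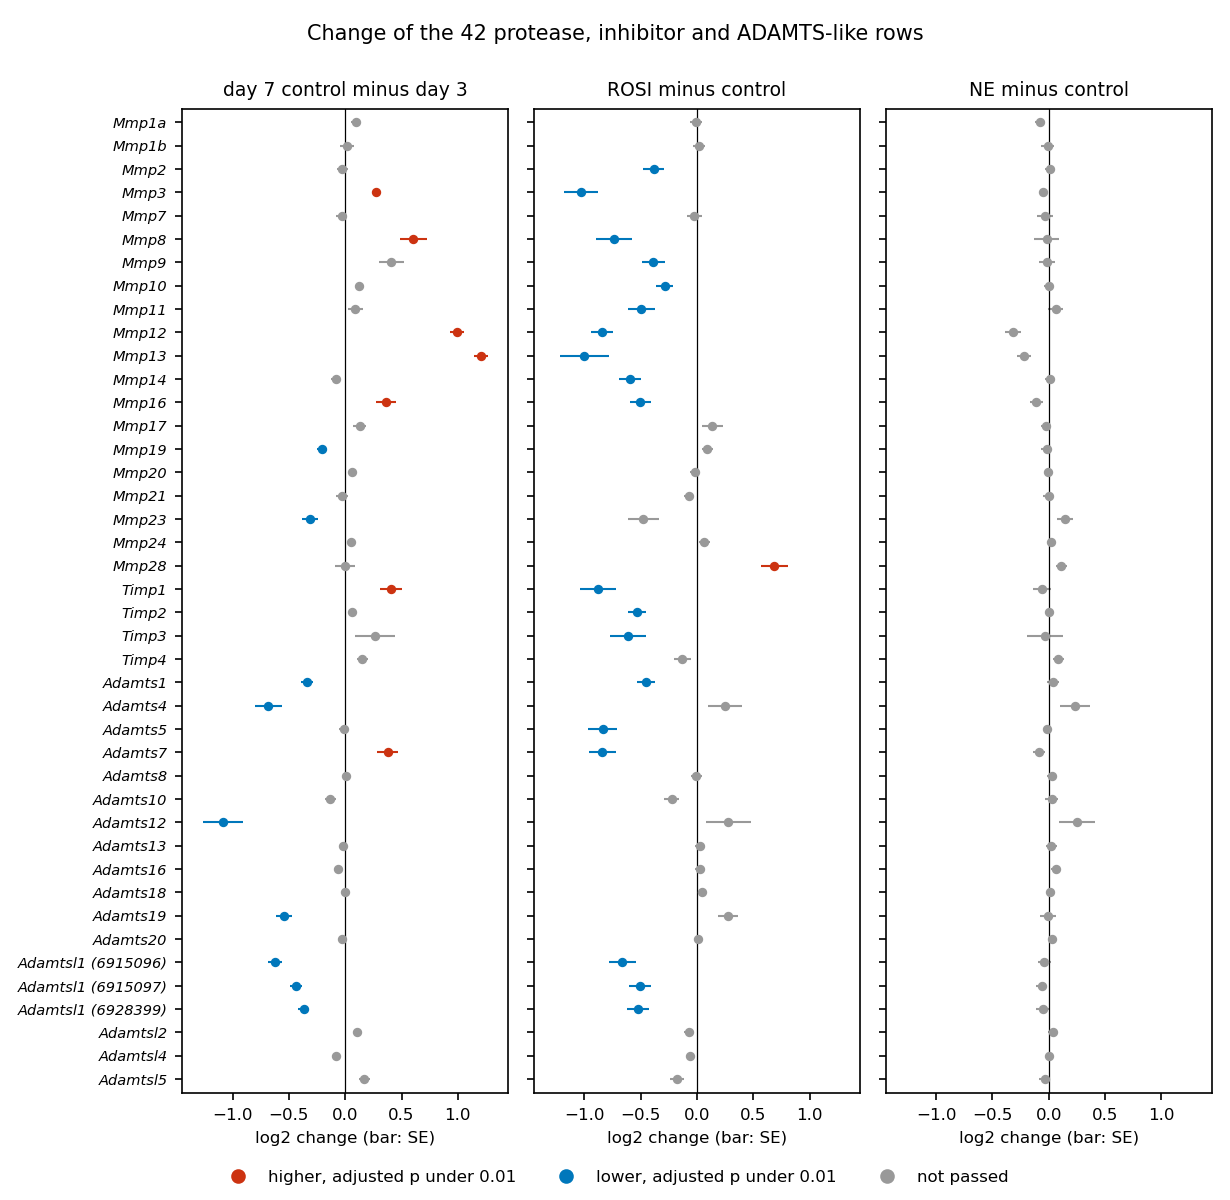
Log2 change (points) with its SE (bars) for each of the 42 clusters, as rows, in 3 comparisons over both strains: day 7 control minus day 3, ROSI minus control and NE minus control. Colours mark adjusted p under 0.01: with ROSI 19 clusters were lower and 1 was higher, at day 7 7 were higher and 9 lower, and with NE none passed.

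The stromelysin gene Mmp3, whose product cuts proteoglycans and fibronectin and activates other MMPs, showed the largest fall with ROSI among the members. Its level in SV129 cultures was 13.07, 13.06, 13.09 and 13.12 in controls and 13.01, 12.10, 12.21, 12.08 and 12.90 with ROSI, and in C57BL/6J cultures 13.16, 13.19, 13.25 and 13.17 in controls and 11.72, 11.75, 11.82 and 11.56 with ROSI. All 9 ROSI arrays lay below all 8 controls, and the 2 SV129 arrays closest to the controls were replicates 1 and 6. The change was -1.03 (SE 0.15, 2.05-fold lower, limma adjusted p = 4.3e-05), and -1.24 (SE 0.077) without these 2 arrays.

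Mmp12, the macrophage elastase, was lower by 0.82 in SV129 and 0.87 in C57BL/6J (changes of -0.82, SE 0.13, and -0.87, SE 0.13). Its controls were 11.44, 11.50, 11.61 and 11.54 in SV129 and 11.63, 11.70, 11.72 and 11.57 in C57BL/6J, against 11.00, 11.09, 10.31, 10.27 and 10.85 and 10.80, 10.73, 10.79 and 10.83 with ROSI. No ROSI array reached a control, and the change was -0.84 (SE 0.097, adjusted p = 4.5e-06, limma).

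The collagenase genes Mmp13 and Mmp8 were less even. Mmp13, whose product cuts fibrillar collagen, was 8.22, 8.38, 8.37 and 8.40 in C57BL/6J controls and 6.62, 6.83, 6.62 and 6.61 with ROSI, but in SV129 7.92, 7.89, 8.06 and 7.99 in controls and 7.75, 8.41, 6.97, 6.86 and 7.86 with ROSI. Thus all 4 C57BL/6J ROSI arrays were far below their controls, while SV129 ROSI replicate 2 was above every SV129 control. The change over both strains was -1 (SE 0.22, adjusted p = 0.0014, limma), made up of -1.67 (SE 0.19) in C57BL/6J and -0.40 (SE 0.18) in SV129. Mmp8, the neutrophil collagenase, was 7.24, 7.55, 6.81 and 6.98 in SV129 controls and 6.99, 6.69, 6.20, 5.97 and 7.11 with ROSI, and 7.39, 8.21, 7.96 and 7.56 against 6.90, 6.79, 6.75 and 6.95 in C57BL/6J. The C57BL/6J groups did not overlap and the SV129 groups did, and the change was -0.73 (SE 0.16, adjusted p = 0.0016, limma). Mmp10, the second stromelysin, fell by 0.29 (SE 0.073), whereas Mmp1a, Mmp1b, Mmp7 and Mmp20 of the same row, all dim, lay between -0.02 and 0.02. In the plot of this row in gene order, the dim genes Mmp1b and Mmp1a lie between genes that fell.

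**Figure D2:**
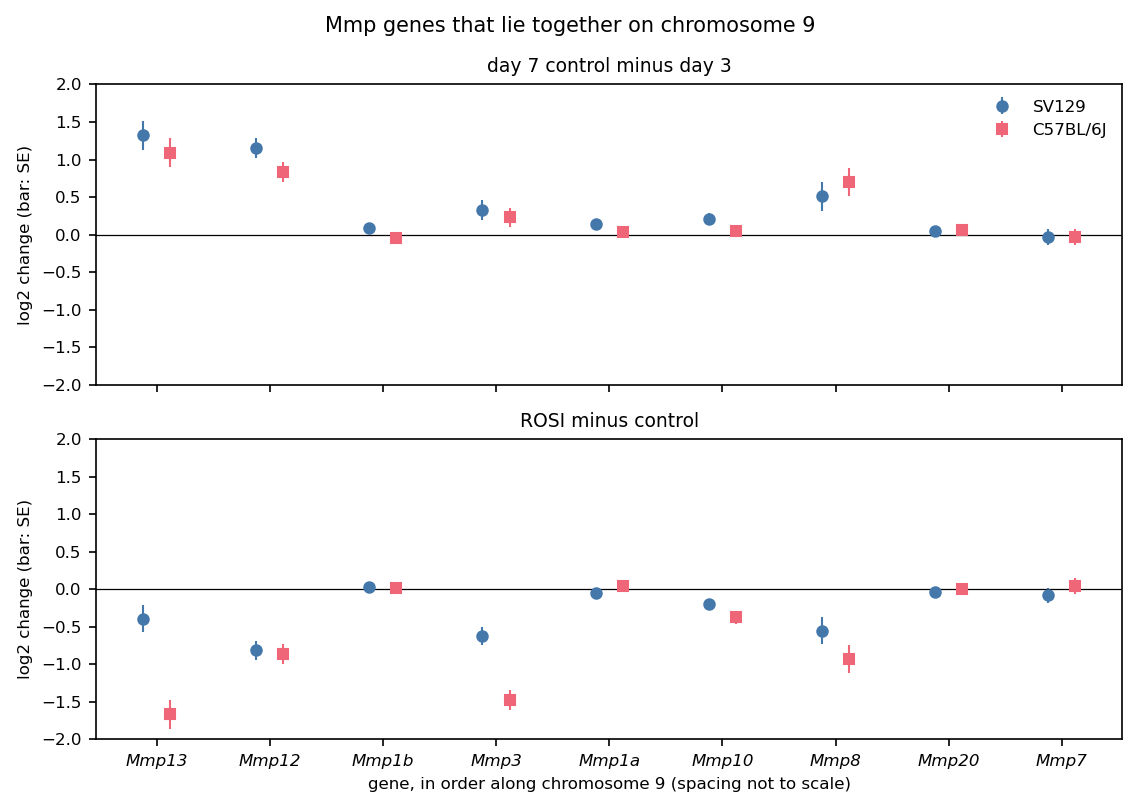
Log2 change (points) with its SE (bars) of the 9 measured Mmp genes of the chromosome 9 row, in gene order on the horizontal axis, for each strain, with day 7 control minus day 3 above and ROSI minus control below. Mmp13, Mmp12, Mmp3 and Mmp8 are above 0 at day 7 and below 0 with ROSI in both strains, and the gap between strains with ROSI is widest for Mmp13 (-0.40 in SV129, -1.67 in C57BL/6J).

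The membrane-type protease gene Mmp14 and the gelatinase gene Mmp2, whose precursor MMP14 activates on the cell surface, were both lower with ROSI. Mmp14 was 12.85, 12.93, 12.72 and 12.68 in SV129 controls against 12.72, 11.90, 12.29, 12.23 and 12.63 with ROSI, and 12.88, 12.97, 12.99 and 12.80 against 12.07, 12.18, 11.97 and 12.32 in C57BL/6J. Only SV129 ROSI replicate 1 reached the controls, and the change was -0.60 (SE 0.10, adjusted p = 0.00014, limma), or -0.72 (SE 0.068) without SV129 ROSI replicates 1 and 6. Mmp2 was 13.55, 13.54, 13.33 and 13.28 against 13.37, 12.61, 13.23, 13.24 and 13.41 in SV129, and 13.64, 13.73, 13.66 and 13.59 against 13.07, 13.13, 13.15 and 13.12 in C57BL/6J. The SV129 groups overlapped through replicates 1 and 6, and the change was -0.39 (SE 0.092, adjusted p = 0.0027, limma), or -0.47 (SE 0.081) without these 2 arrays. The other gelatinase gene, Mmp9, fell by the same size (-0.39, SE 0.10, adjusted p = 0.0055), but not when SV129 control replicates 5 and 6, its 2 highest controls at 7.99 and 7.89, were left out (-0.28, adjusted p = 0.041). Its call also ended without any 1 of 8 arrays (SV129 controls 5 and 6, SV129 ROSI 2, 3 and 4, C57BL/6J controls 2 and 6 and C57BL/6J ROSI 2), at -0.34 to -0.38 with adjusted p up to 0.014. The membrane-type gene Mmp16 (-0.50, SE 0.092) and the stromelysin-3 gene Mmp11 (-0.50, SE 0.12) were lower as well.

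Mmp28, or epilysin, a secreted MMP known from skin and other epithelia, was the single member that rose with ROSI over both strains. In SV129 it was 8.69, 8.41, 8.59 and 8.56 in controls and 8.71, 9.47, 9.63, 9.84 and 8.92 with ROSI, and in C57BL/6J 8.75, 8.61, 8.65 and 8.85 against 9.41, 9.37, 9.24 and 9.29. Within each strain every ROSI array was above every control, SV129 ROSI replicate 1 by the least. The change was 0.69 (SE 0.12, 1.61-fold higher, adjusted p = 0.00023, limma), and 0.83 (SE 0.085) without SV129 ROSI replicates 1 and 6.

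Of the 4 inhibitors, Timp1, Timp2 and Timp3 fell with ROSI and Timp4 did not pass (-0.13, SE 0.076). Timp1, a secreted inhibitor of most soluble MMPs, was 13.18, 12.92, 13.17 and 13.17 in SV129 controls and 13.09, 12.69, 12.25, 12.20 and 12.92 with ROSI, and 13.23, 12.73, 12.85 and 13.42 against 11.85, 11.70, 11.68 and 11.69 in C57BL/6J. The C57BL/6J groups were far apart, and in SV129 replicate 1 lay among the controls and replicate 6 at the level of the lowest. The change was -0.88 (SE 0.16, 1.84-fold lower, adjusted p = 0.00025, limma), made up of -1.33 (SE 0.14) in C57BL/6J and -0.48 (SE 0.14) in SV129. Without SV129 ROSI replicates 1 and 6 it was -1.05 (SE 0.12) over both strains.

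Timp2, which also takes part in the activation of MMP2 by MMP14, had controls within a narrow range. They were 13.22, 13.16, 13.15 and 13.11 in SV129 and 13.21, 13.16, 13.20 and 13.19 in C57BL/6J, and with ROSI 13.15, 12.61, 12.63, 12.54 and 12.99 and 12.49, 12.52, 12.47 and 12.47. All but SV129 ROSI replicate 1 were below every control, and the change was -0.53 (SE 0.079, adjusted p = 4.8e-05, limma), or -0.64 (SE 0.035) without SV129 ROSI replicates 1 and 6.

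Timp3, which binds to the matrix and also inhibits ADAMTS enzymes, was lower with ROSI (-0.62, SE 0.16, adjusted p = 0.0056, limma), but its arrays were split. In SV129 the controls were 11.38, 11.36, 10.28 and 10.18, so that replicates 5 and 6 lay among the ROSI arrays (10.47, 9.86, 10.18, 10.27 and 10.03). In C57BL/6J the controls were 11.90, 12.06, 12.07 and 11.54 against 11.22, 11.27, 11.09 and 11.64, and the highest ROSI array was above the lowest control. The call ended without any 1 of 9 of the 17 arrays (SV129 controls 1 and 4, SV129 ROSI 2, C57BL/6J controls 2, 3 and 4, and C57BL/6J ROSI 2, 3 and 4), at -0.52 to -0.62 with adjusted p up to 0.014, and leaving out SV129 control replicates 5 and 6 together gave -0.85 (SE 0.13, adjusted p = 0.00017).

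**Figure D3:**
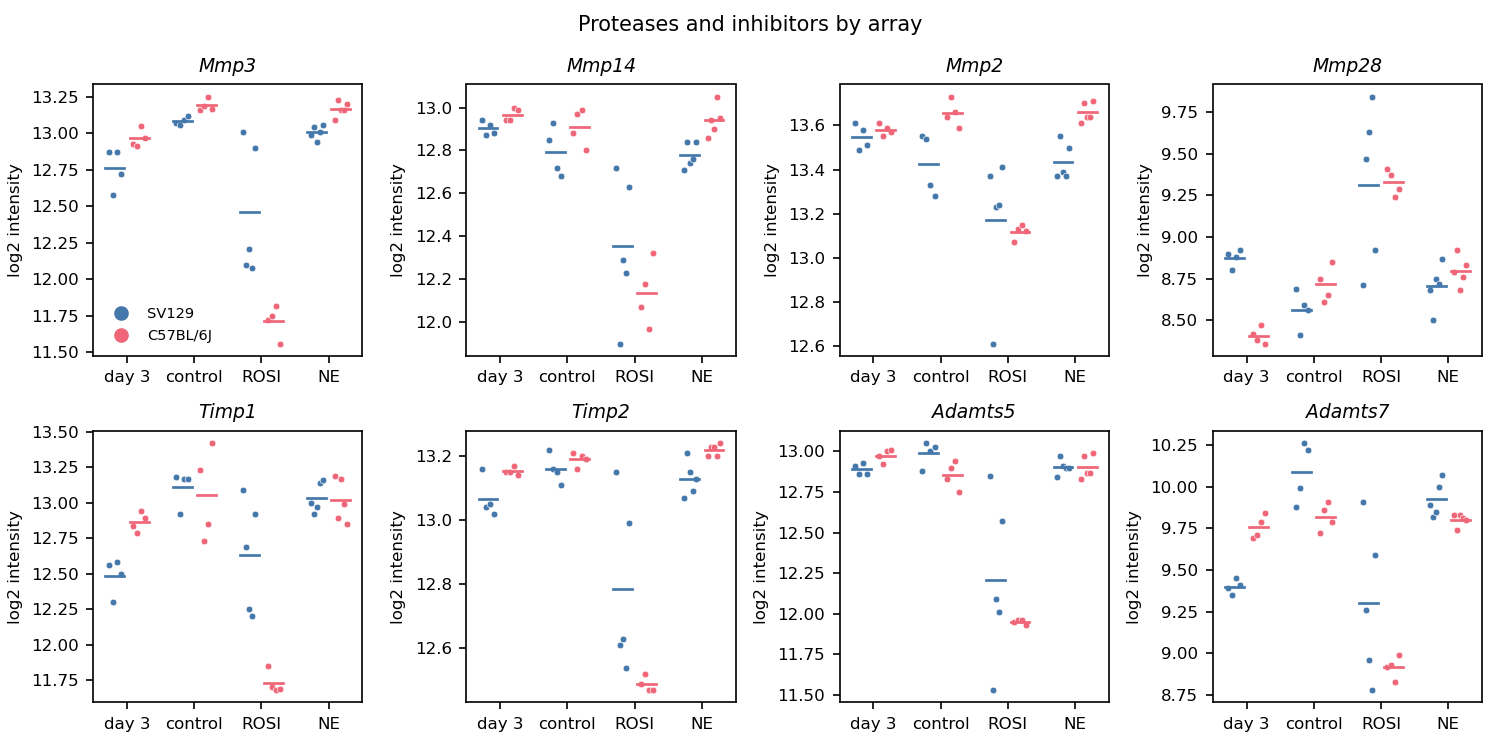
Log2 intensity of 8 members on every array (points) with the group mean (lines), by condition on the horizontal axis and strain by colour. With ROSI the C57BL/6J arrays lie below their controls for all but Mmp28, and SV129 ROSI replicates 1 and 6 lie nearest the SV129 controls (Mmp3 at 13.01 and 12.90).

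Among the ADAMTS genes, Adamts5, the main mouse aggrecanase, Adamts7, which cuts the cartilage protein COMP, and Adamts1, which cuts versican and aggrecan, were lower with ROSI. Adamts5 was 12.88, 13.05, 13.00 and 13.03 in SV129 controls and 12.85, 11.53, 12.09, 12.01 and 12.57 with ROSI, and 12.83, 12.90, 12.94 and 12.75 against 11.95, 11.96, 11.96 and 11.93 in C57BL/6J. Within each strain all ROSI arrays were below all controls. The change was -0.84 (SE 0.13, 1.79-fold lower, adjusted p = 4.8e-05, limma), or -1.001 (SE 0.072) without SV129 ROSI replicates 1 and 6.

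Adamts7 was 9.88, 9.99, 10.26 and 10.22 in SV129 controls and 9.91, 9.26, 8.96, 8.78 and 9.59 with ROSI, and 9.72, 9.86, 9.91 and 9.79 against 8.92, 8.93, 8.83 and 8.99 in C57BL/6J. Again SV129 ROSI replicate 1 alone reached the controls of its strain, and the change was -0.84 (SE 0.12, adjusted p = 3e-05, limma), or -0.99 (SE 0.075) without SV129 ROSI replicates 1 and 6. Adamts1 fell by 0.45 (SE 0.078, adjusted p = 0.00017). The 3 clusters of Adamtsl1 fell by 0.67, 0.51 and 0.52 (SE 0.12, 0.097 and 0.098), so that all clusters with this symbol went the same way.

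The 22 clusters that did not pass ranged from -0.48 to 0.28. They hold the remaining 9 Mmp genes, Timp4, 9 Adamts genes and the 3 other Adamts-like genes, among them the second aggrecanase gene Adamts4 (0.25, SE 0.15), and Mmp23 (-0.48, SE 0.14, adjusted p = 0.012), which was close to the threshold.

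Genes that work with these proteases were put in 5 pathway lists, chosen with earlier results of these data known, so they are no independent support. Of the changes that passed in these 5 lists all but 1 were falls. Over all clusters 11.6% were lower and 16.3% higher. Of 9 activators and receptors of MMPs, 7 were lower with ROSI and 0 higher, with a median change of -0.36. Plat and Plau, which make plasmin, an enzyme that opens MMP precursors, fell by 0.83 (SE 0.14) and 0.71 (SE 0.19), and Lrp1, the receptor that clears MMP and TIMP complexes, by 0.36 (SE 0.046). Of 9 other inhibitors, 5 were lower, Reck, which inhibits MMPs at the membrane, by 0.78 (SE 0.085). Of 16 other matrix proteases, 9 were lower and Htra3 was higher, and Ctsk, the collagen-degrading cathepsin K, fell by 0.64 (SE 0.086).

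Of 17 substrates, 8 were lower, the versican gene Vcan by 1.00 (SE 0.22) and the fibronectin gene Fn1 by 0.52 (SE 0.089), while the basement membrane genes Col4a1 (0.05, SE 0.034) and Lamc1 (-0.08, SE 0.046) did not pass. Of 16 AP-1 and ETS factors and cytokine genes, which regulate many MMP promoters, 5 were lower: Il6 by 1.26 (SE 0.22), Ets2 by 0.70 (SE 0.092), Il1r1 by 0.69 (SE 0.11), the receptor gene Osmr by 0.60 (SE 0.11) and Fosl2 by 0.37 (SE 0.058). The AP-1 genes Jun (-0.14, SE 0.052) and Fosl1 (-0.29, SE 0.15) did not pass.

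Markers of cell types moved in the same comparison. Of 9 fat cell markers 8 were higher with ROSI (all but Lep, which was dim), and their mean level ranged from 9.93 to 10.94 in controls and from 11.02 to 11.97 with ROSI. Of 7 precursor markers 5 were lower (Pdgfra, Dpp4, Dlk1, Pi16 and Pdgfrb), with a mean level of 10.58 to 10.98 in controls and 9.65 to 10.73 with ROSI. Of 11 macrophage markers Itgam alone passed, as lower, and the mean level was 8.18 to 8.58 in controls and 7.88 to 8.65 with ROSI. Of 8 smooth muscle and mural markers 4 were lower and 3 higher, and of 9 neutrophil markers none passed. The mean level of the 8 was 8.24 to 8.40 in controls and 8.18 to 8.49 with ROSI, and that of the neutrophil markers 5.84 to 6.13 and 5.80 to 6.08. The part of these cell types in the change of the proteases was not tested.

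The effect of ROSI was then compared between strains. No member passed the interaction of ROSI with strain at an adjusted p under 0.01 (limma, 0 of 42, against 0.00557% of all clusters), though 8 members, and 8.97% of all clusters, had an unadjusted p under 0.05. These included the 3 with the widest gap, Mmp13 (difference -1.28, SE 0.32), Mmp3 (-0.85, SE 0.23) and Timp1 (-0.85, SE 0.25), each with the more negative change in C57BL/6J, and their adjusted p lay between 0.26 and 0.33. Adamts19 (0.465, SE 0.14, adjusted p = 0.35) and Mmp17 (0.40, SE 0.16, adjusted p = 0.51), chosen here after their values were seen, had the more positive change in C57BL/6J. With C57BL/6J arrays alone 3 members were higher (Mmp28, Adamts19 and Mmp17) and 20 lower, against 2805 and 2092 of all clusters. With SV129 arrays alone 0 members and 1 of all clusters passed. Leaving out ROSI replicates 1 and 6, the ROSI arrays nearest the controls, favours calls by the choice itself. With SV129 arrays without them 11 members passed, against 1872 higher and 870 lower of all clusters. These 11 were Mmp28, higher, and Mmp3, Mmp9, Mmp12, Mmp14, Mmp16, Timp1, Timp2, Adamts1, Adamts5 and Adamts7, lower.

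The second comparison set untreated cultures at day 7 (n = 8) against day 3 (n = 8). Here 7 of the 42 clusters were higher and 9 lower at an adjusted p under 0.01 (limma), and 26 did not pass, against 9.69% higher and 5.6% lower of all clusters. The changes had a median of 0.003 over the members and 0.015 over all clusters. The rises were 5 Mmp genes, Timp1 and Adamts7, and the falls were mostly Adamts and Adamts-like clusters (4 Adamts genes, the 3 clusters of Adamtsl1, Mmp19 and Mmp23). Of all calls 63.4% were higher as deposited, 52.7% after quantile normalization and 46.6% after median centring. With quantile normalization 6 members were higher and 9 lower. With median centring 4 members were higher and 9 lower, since Timp1, Adamts7 and Mmp16 no longer passed (adjusted p = 0.011 to 0.012).

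The largest rises were again in the chromosome 9 row. Mmp13 was 6.76, 6.56, 6.78 and 6.48 at day 3 in SV129 and 7.08, 7.28, 7.32 and 7.33 in C57BL/6J, and the day 7 controls given above started at 7.89 and 8.22. All day 7 arrays lay above all day 3 arrays, and the change was 1.21 (SE 0.059, 2.31-fold, adjusted p = 1.7e-09, limma). Mmp12 was 10.45, 10.24, 10.40 and 10.38 at day 3 in SV129 and 10.64, 10.88, 10.99 and 10.79 in C57BL/6J, also without overlap with day 7, and rose by 0.99 (SE 0.061, 1.99-fold, adjusted p = 2e-08).

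Mmp8 rose by 0.60 (SE 0.12, adjusted p = 0.0013) and Mmp3 by 0.28 (SE 0.042, adjusted p = 0.00016). Mmp3 was 12.87, 12.58, 12.87 and 12.72 at day 3 in SV129 and 12.93, 12.91, 13.05 and 12.97 in C57BL/6J, and no day 7 control was as low. Timp1 (0.41, SE 0.099), Adamts7 (0.38, SE 0.093) and Mmp16 (0.36, SE 0.088) had adjusted p between 0.0056 and 0.0065, and without SV129 control replicates 5 and 6 none of these 3 passed (0.34, 0.25 and 0.25, adjusted p = 0.023 to 0.035). Leaving out any 1 SV129 day 3 array, or SV129 control replicate 5 or 6, also ended each of these 3 calls, as did SV129 control 4 for Adamts7 and Mmp16, and SV129 control 1 and C57BL/6J controls 2 and 6 for Timp1 (adjusted p up to 0.016).

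Macrophage markers moved with these genes. Of 11 measured, 10 were higher at day 7 (all but Ptprc) and 0 lower, and their mean level ranged from 7.35 to 7.79 at day 3 and from 8.18 to 8.58 at day 7, with 2 markers dim at day 3 and 0 at day 7. The scavenger receptor gene Msr1 rose by 1.26 (SE 0.065) and the macrophage surface gene Adgre1 by 0.85 (SE 0.058), beside 0.99 for Mmp12. In the ROSI comparison above, where Mmp12 fell by 0.84, Itgam alone of the 11 markers passed, as lower. Msr1 (-0.17, SE 0.13) and Adgre1 (0.23, SE 0.13), picked here from the 11, did not pass. The part of macrophages in the rise of Mmp12, Mmp13 and Mmp8 at day 7 was not tested. Of the fat cell markers 0 of 9 passed over the same days, with a mean level of 10.28 to 10.95 at day 3, and of the neutrophil markers S100a8 alone passed, as higher. Of the 7 precursor markers Pi16 was higher (0.67, SE 0.12), Cd34 (-0.85, SE 0.19) and Pdgfra (-0.29, SE 0.068) lower, and of the 8 mural markers Acta2 was lower (-0.41, SE 0.11). The mean level of the precursor markers was 10.68 to 11.01 at day 3 and 10.58 to 10.98 at day 7, and that of the mural markers 8.24 to 8.53 and 8.24 to 8.40. Their part in the day 7 changes was not tested.

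The same pathway lists were split at day 7, where 9.69% of all clusters were higher and 5.6% lower. Of the 16 AP-1, ETS and cytokine genes 5 were higher, among them Il6 (1.12, SE 0.13) and Ets2 (0.76, SE 0.091), and Fos was lower (-0.79, SE 0.2). Of the 16 other matrix proteases 2 were higher, Adam8 and Ctss, and 5 lower, led by the fibroblast activation protein gene Fap (-1.30, SE 0.14). Of the 17 substrates the elastin gene Eln alone passed, as lower (-0.48, SE 0.098), and of the 9 activators and receptors Lrp1 alone, as higher (0.10, SE 0.025).

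The falls at day 7 were led by Adamts12, which cuts COMP like Adamts7. It was 10.71, 10.71, 10.76 and 10.77 at day 3 in SV129 and 10.63, 10.60, 10.67 and 10.67 in C57BL/6J, and 9.80, 10.19, 8.72 and 8.73 and 9.75, 10.00, 10.00 and 9.65 at day 7. No day 7 array reached day 3, and SV129 control replicates 5 and 6 were the lowest. The change was -1.085 (SE 0.18, 2.12-fold lower, adjusted p = 0.00034, limma), or -0.77 (SE 0.065) without these 2 arrays.

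Adamts4 was 9.21, 9.27, 9.28 and 9.32 at day 3 in SV129 and 9.50, 9.37, 9.55 and 9.49 in C57BL/6J, against 8.77, 9.06, 8.12 and 8.15 and 8.78, 9.05, 9.04 and 8.57 at day 7. The groups did not overlap, SV129 control replicates 5 and 6 were again lowest, and the change was -0.68 (SE 0.12, adjusted p = 0.00039, limma), or -0.515 (SE 0.079) without them. Adamts19 (-0.54, SE 0.068) and Adamts1 (-0.34, SE 0.054) fell as well, and the Adamtsl1 clusters fell by 0.62, 0.44 and 0.37 (SE 0.065, 0.052 and 0.047). Mmp23 (-0.31, SE 0.069) and Mmp19 (-0.21, SE 0.043) were the 2 Mmp genes that fell.

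**Figure D4:**
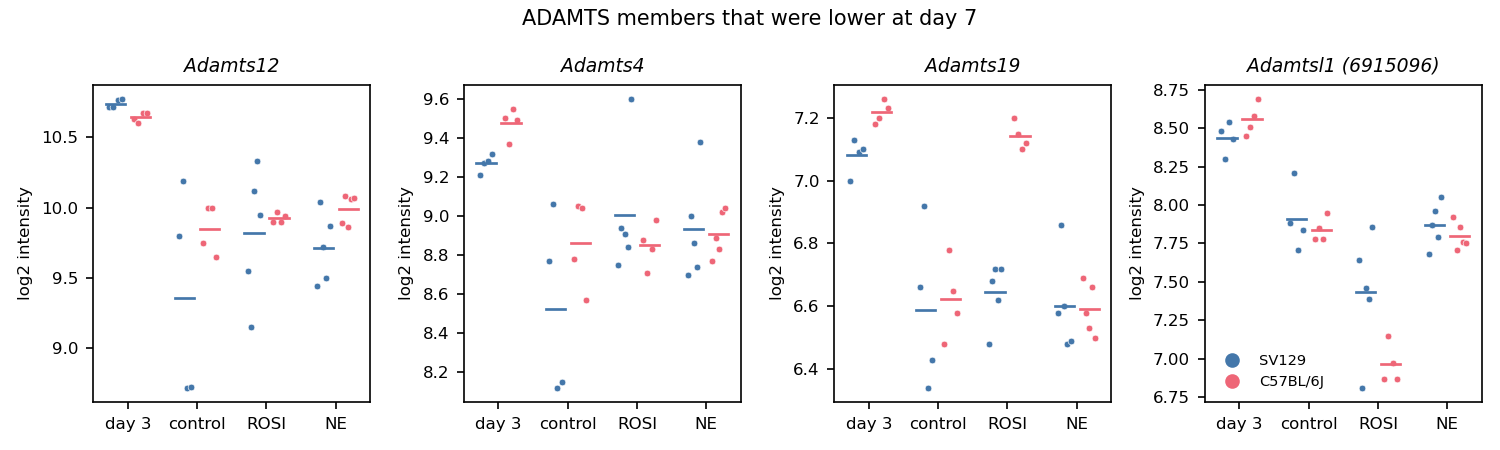
Log2 intensity of 4 ADAMTS members on every array (points) with the group mean (lines), by condition on the horizontal axis and strain by colour. Day 3 arrays lie above day 7 controls in all 4, SV129 control replicates 5 and 6 are the lowest controls of Adamts12 (8.72 and 8.73) and Adamts4 (8.12 and 8.15), and Adamts19 with ROSI is higher in C57BL/6J (7.10 to 7.20) than in SV129 (6.48 to 6.72).

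The other 3 inhibitors, both gelatinases and Mmp14 did not pass at day 7: Timp2 (0.06, SE 0.028), Timp3 (0.26, SE 0.18), Timp4 (0.15, SE 0.050), Mmp2 (-0.025, SE 0.048), Mmp9 (0.41, SE 0.11, adjusted p = 0.013) and Mmp14 (-0.085, SE 0.039). Mmp9 passed without C57BL/6J control replicate 3 or 4 (0.45 and 0.46, adjusted p up to 0.0085). Timp3 passed without SV129 control replicates 5 and 6 (0.57, SE 0.081, adjusted p = 0.00016). In C57BL/6J it was 11.08, 11.26, 11.23 and 11.31 at day 3 and 11.54 to 12.07 at day 7, with no overlap, whereas in SV129 the day 3 arrays (11.03, 10.83, 11.01 and 10.90) lay between the 2 pairs of controls.

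The day 7 and ROSI comparisons share the day 7 controls, so their values for a member are not independent. Controls that happen to lie high raise the day 7 change and lower the ROSI change. The share of all clusters with both calls was not computed, so the overlap below cannot be called particular to the members. Side by side, the 7 clusters that were higher at day 7 were lower with ROSI (Mmp3, Mmp8, Mmp12, Mmp13, Mmp16, Timp1 and Adamts7), for example Mmp13 at 1.21 and -1. Adamts1 and the 3 Adamtsl1 clusters were lower in both. Mmp2, Mmp14, Timp2 and Adamts5 were lower with ROSI and did not pass over days 3 to 7, and Adamts12, Adamts4, Adamts19, Mmp23 and Mmp19 were lower at day 7 and did not pass with ROSI.

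The third comparison set NE (n = 10) against the same controls (n = 8). No member passed (limma, 0 of 42, and 0% of all clusters), 3 members and 11.4% of all clusters had an unadjusted p under 0.05, and the changes ranged from -0.32 to 0.25. The lowest, Mmp12 (-0.32, SE 0.074, adjusted p = 0.078), named here after its value was seen, was 10.99, 11.48, 10.97, 10.99 and 10.92 in SV129 and 11.59, 11.25, 11.65, 11.48 and 11.39 in C57BL/6J. In SV129 all but replicate 2 were below every control, and without this array Mmp12 was the 1 member that passed. None of the pathway lists held a gene that passed with NE. No member passed the interaction of NE with strain (0 of 42 and 0% of all clusters, limma), and 1 member, against 9.73% of all clusters, had an unadjusted p under 0.05.

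The drugs were also set against each other, ROSI (n = 9) minus NE (n = 10). Of the 42 clusters 21 were lower with ROSI and 2 higher (limma), against 12% and 15.8% of all clusters. Of the markers, 7 of 7 for precursors were lower and 7 of 9 for fat cells higher, with mean levels of 9.65 to 10.73 with ROSI against 10.65 to 10.90 with NE, and of 11.02 to 11.97 against 10.56 to 11.21. Mural markers were 3 higher and 4 lower of 8 (mean level 8.18 to 8.49 against 8.22 to 8.43), endothelial 3 higher and 1 lower of 8 (7.91 to 8.17 against 7.92 to 8.07), and macrophage 2 higher and 1 lower of 11 (7.88 to 8.65 against 7.89 to 8.42), and their part in the members' changes was not tested. Both Mmp28 (0.57, SE 0.11) and Adamts19 (0.28, SE 0.075) were higher with ROSI. For Adamts19 this came from C57BL/6J, where ROSI arrays were 7.20, 7.15, 7.10 and 7.12 against 6.50 to 6.69 with NE, while in SV129 both groups lay between 6.48 and 6.86. With SV129 arrays alone, without ROSI replicates 1 and 6, it was 0.07 (SE 0.092). Its call also ended without any 1 of 7 C57BL/6J arrays (ROSI 2, 3, 4 and 6, and NE 3, 4 and 6, adjusted p up to 0.014).

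The 5 largest falls against NE were Mmp3 (-0.98, SE 0.14), Timp1 (-0.82, SE 0.14), Adamts5 (-0.82, SE 0.11), Mmp13 (-0.78, SE 0.21) and Adamts7 (-0.75, SE 0.11), with adjusted p between 2.5e-05 and 0.0049. Within strains Mmp13 was at -0.18 (SE 0.17) in SV129 and -1.449 (SE 0.18) in C57BL/6J, and Timp1 at -0.41 (SE 0.13) and -1.29 (SE 0.14). Timp2 (-0.53, SE 0.076), Timp3 (-0.58, SE 0.11), Mmp14 (-0.60, SE 0.091), Mmp2 (-0.39, SE 0.080) and Mmp9 (-0.37, SE 0.094) were lower too. The call for Mmp13 ended without any 1 of 9 arrays (C57BL/6J ROSI 2, 3, 4 and 6, C57BL/6J NE 1, 4 and 5, and SV129 ROSI 3 and 4, adjusted p up to 0.013). Timp4, an inhibitor known from heart and fat, did not pass (-0.22, SE 0.068, adjusted p = 0.016), but without SV129 ROSI replicates 1 and 6 it did (-0.30, SE 0.055, adjusted p = 0.00018), and also without either alone (adjusted p up to 0.004).

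Strains were compared over all 35 arrays, as the mean of the 4 conditions. Of the 42 clusters 5 were higher and 1 was lower in C57BL/6J (limma), against 3.25% and 2.08% of all clusters. Timp3 had the widest gap of the 42, 0.95 (SE 0.10, 1.93-fold, adjusted p = 2e-07), and was higher in C57BL/6J in each condition. With NE it was 11.90, 11.91, 11.87, 12.18 and 11.91 in C57BL/6J and 10.34, 11.38, 10.53, 10.53 and 10.59 in SV129. Within each of the 4 conditions every C57BL/6J array was above every SV129 array, and the gap was 0.275 (SE 0.21) at day 3, 1.09 (SE 0.21) in controls, 1.14 (SE 0.20) with ROSI and 1.28 (SE 0.19) with NE. Without SV129 control replicates 5 and 6 it was 0.805 (SE 0.079).

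Mmp8 was higher in C57BL/6J by 0.52 (SE 0.089, adjusted p = 0.00018) and Mmp12 by 0.27 (SE 0.064, adjusted p = 0.0049), with the same sign in each condition. With NE, Mmp8 was 7.84, 7.91, 7.72, 7.81 and 7.76 in C57BL/6J and 6.85, 7.27, 6.97, 6.95 and 7.33 in SV129, without overlap. At day 3 the strains did not overlap either, but in controls and with ROSI (gap 0.26, SE 0.18) they did. Mmp12 overlapped in all conditions but day 3. Its gap was 0.46 (SE 0.13) at day 3, 0.14 (SE 0.13) in controls, 0.08 (SE 0.13) with ROSI and 0.40 (SE 0.12) with NE. Mmp9 was lower in C57BL/6J (-0.27, SE 0.059, adjusted p = 0.0026). It went the other way at day 3 (7.25, 7.28, 7.17 and 7.22 against 6.95, 6.97, 7.01 and 6.89) from the later groups. Mmp11 (0.24, SE 0.060) and Adamts19 (0.16, SE 0.042), which fell outside the rule for named genes and were picked after their values were seen, were the other 2. Their strain gap was uneven: Adamts19 was at 0.50 (SE 0.083) with ROSI, 0.14 (SE 0.088) at day 3, 0.03 (SE 0.088) in controls and -0.01 (SE 0.078) with NE, and Mmp11 at -0.08 (SE 0.12) with ROSI and 0.18 to 0.42 elsewhere. The call for Adamts19 ended without SV129 ROSI replicates 1 and 6. Without SV129 control replicates 5 and 6, Timp3 and Mmp8 alone passed, since Mmp12 was at 0.28 (adjusted p = 0.012) and Mmp9 at -0.22 (adjusted p = 0.021). Mmp12 also did not pass without SV129 day 3 replicate 3 or C57BL/6J day 3 replicate 4 (adjusted p = 0.01). Of 11 macrophage markers 7 were also higher in C57BL/6J and 0 lower, with a mean level of 7.62 to 7.79 against 7.35 to 7.50 at day 3 and 8.26 to 8.42 against 7.89 to 8.11 with NE, but with overlap in controls (8.29 to 8.58 against 8.18 to 8.31) and with ROSI (8.37 to 8.50 against 7.88 to 8.65), and their part in the gap of Mmp8 and Mmp12 was not tested.

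**Figure D5:**
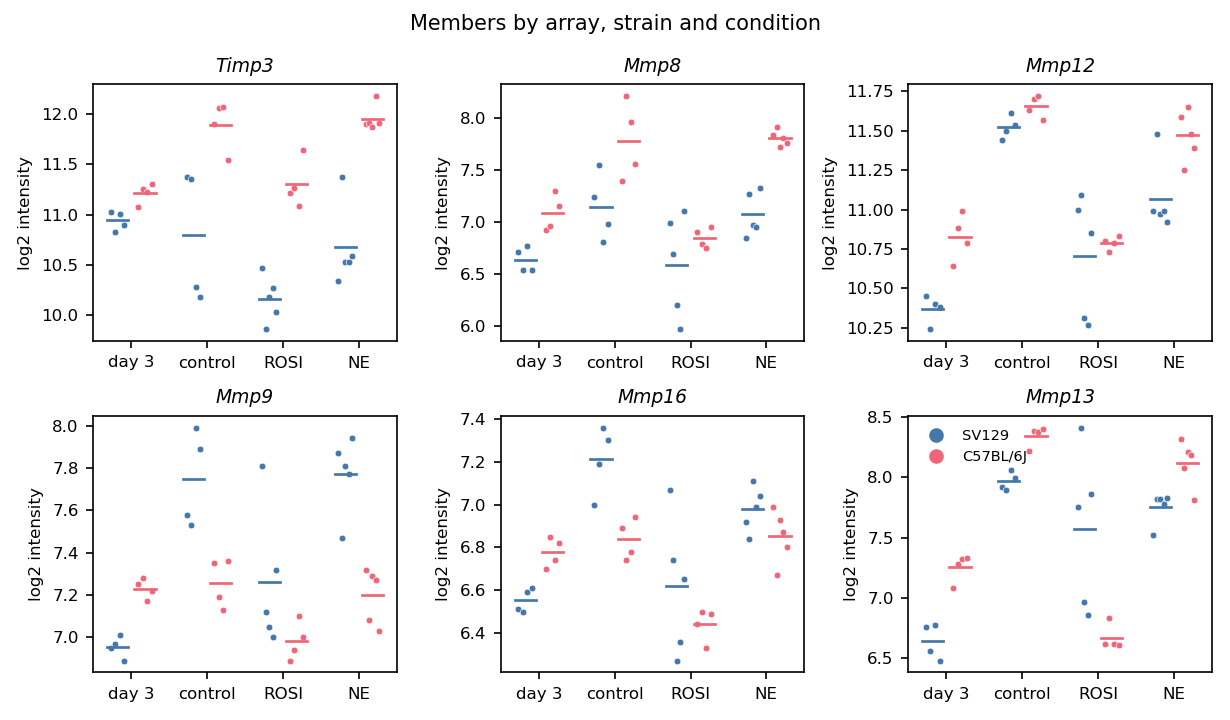
Log2 intensity of 6 members on every array (points) with the group mean (lines), by condition on the horizontal axis and strain by colour. Timp3 is higher in C57BL/6J in each condition, Mmp9 and Mmp16 are higher in controls than at day 3 in SV129 (Mmp9 at 7.53 to 7.99 against 6.89 to 7.01) while these groups overlap in C57BL/6J, and Mmp13 in SV129 ROSI replicate 2 reaches 8.41.

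The change from day 3 to day 7 differed between strains for 4 of the 42 clusters at an adjusted p under 0.01 (limma interaction), against 4.31% of all clusters. Of all these calls 64.5% were positive (the more positive change in C57BL/6J) as deposited and 49.5% after median centring, and the same 4 members passed there. Mmp9 differed by -0.76 (SE 0.12, adjusted p = 0.001). In SV129 it went from the day 3 values above to 7.58, 7.53, 7.99 and 7.89, and in C57BL/6J it was 7.35, 7.19, 7.13 and 7.36 at day 7, overlapping day 3. Adamts7 (-0.625, SE 0.10, adjusted p = 0.0013) and Mmp16 (-0.60, SE 0.099, adjusted p = 0.0012) had the same pattern, with changes of 0.69 and 0.66 in SV129 and 0.06 and 0.06 in C57BL/6J.

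Mmp28 crossed over. It was 8.90, 8.80, 8.88 and 8.92 at day 3 and 8.41 to 8.69 at day 7 in SV129, but 8.42, 8.38, 8.47 and 8.36 at day 3 and 8.61 to 8.85 at day 7 in C57BL/6J. Neither pair of groups overlapped, and the difference between the strains' changes was 0.63 (SE 0.087, adjusted p = 0.00032, limma). All 4 held without SV129 control replicates 5 and 6 (adjusted p = 0.0016 to 0.0065), and none of the 4 passed with all 35 arrays in 1 model, where the differences were the same in size and had larger SE (0.15 to 0.20, adjusted p = 0.014 to 0.066), and 47 positive and 48 negative calls were left over all clusters. In the same comparison 6 of 9 fat cell markers were higher in the C57BL/6J change and 0 lower, with a median difference of 0.995 on the log2 scale. Their mean level went from 10.28 to 10.39 up to 10.54 to 10.94 in C57BL/6J and from 10.81 to 10.95 down to 9.93 to 10.58 in SV129, and their part in these 4 genes was not tested.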

How the data were processed

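The deposited table holds, per the file headers and the study's methods, 1 log2 value for each transcript cluster and array, which the authors made with Affymetrix Power Tools and RMA (versions not given in the sources used here), that is with background correction, quantile normalization and summary of a cluster's probes. RMA sets all arrays to 1 distribution of probe values, so a shift shared by all genes would not be seen. The study's methods state that outlying RNA samples were excluded before its analysis. The number of arrays in a group limits the precision of each comparison.

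The values were used as deposited. Each comparison was fitted over 17958 clusters with lmFit and eBayes of limma 3.58.1 in R 4.3.3, two-sided, with Benjamini-Hochberg adjustment and a threshold of 0.01. Day 7 against day 3, ROSI, NE, and ROSI against NE had strain as a covariate and only the arrays compared. The strain comparison used all 35 arrays. Values within a strain, or of the strains within a condition, come from the fit of 8 group means. Samples were grouped by the labels, and 0 columns of values were left unmapped. The scripts were tested on simulated data.

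Genes were named with statistics where they passed and had 1 sign in both strains (for strain, in all 4 conditions). Up to 10 in each direction were named for ROSI, NE and day 7, and 5 for ROSI against NE and strain. All members that passed an interaction were added. Timp1 to Timp4, Mmp2, Mmp3, Mmp9 and Mmp14 were named whatever their values for ROSI, day 7 and ROSI against NE. For NE and strain they were named only where they passed. Members outside this rule are given with shorter statistics. The members, gene lists and tests were chosen with earlier results of these data known, and the arrays left out in pairs were chosen after their values were seen. Promoter sequences are RefSeq's, with GRCm38.p6. Symbols come from the platform's annotation, which pairs 1 symbol with 15621 clusters, several with 1370 and none with 967. Figures were drawn with matplotlib 3.10.9.

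Alternatives were quantile normalization, median centring, array weights, an intensity trend, leaving out the dimmest clusters, all arrays in 1 model, no strain term, the replicate number as a block, single strains, a minimum change of 1.5-fold and leaving out each array.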

Additional observations from a re-analysis of the deposited data

Results flagged for a closer look

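In each group of 4 or 5 arrays, the highest or lowest array was compared with the others for 24 clusters in 8 groups, 192 checks, and 13 groups (6.77%) had an array whose gap to the next, over the range of the group, was above Dixon's critical value. Chance gives about 1 in 20.

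Among the inhibitors, Timp3 in SV129 NE replicate 2 was 11.38 against 10.34 to 10.59, and in C57BL/6J NE replicate 5 it was 12.18 against 11.87 to 11.91. Timp1 was 12.92 in SV129 control replicate 4 against 13.17 to 13.18, and 11.85 in C57BL/6J ROSI replicate 2 against 11.68 to 11.70. Timp4 was 7.54 in C57BL/6J day 3 replicate 4 against 7.69 to 7.72.

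Among the proteases, Mmp12 was 11.48 in SV129 NE replicate 2, the array in which Timp3 stood apart too, against 10.92 to 10.99. Mmp13 was 7.52 in SV129 NE replicate 1 (others 7.78 to 7.83), 8.22 in C57BL/6J control replicate 2 (8.37 to 8.40) and 6.83 in C57BL/6J ROSI replicate 3 (6.61 to 6.62). Mmp2 was 12.61 in SV129 ROSI replicate 2 against 13.23 to 13.41, and Adamts4 was 9.60 in SV129 ROSI replicate 6 against 8.75 to 8.94. SV129 control replicate 4 was high for Adamtsl1 clusters 6915097 (8.05 against 7.72 to 7.76) and 6928399 (8.03 against 7.74 to 7.79).

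The change from day 3 to day 7 differed between the strains by a test of the difference for Mmp28 (0.63), Mmp9 (-0.76), Adamts7 (-0.63) and Mmp16 (-0.60). These are log2 differences of the C57BL/6J change minus the SV129 change.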

How the results depend on the processing

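Each of the 58 named results was fitted 25 to 44 times with the main fit included, and the alternatives gave 1715 values in all. Of these, 1535 kept direction and side of the threshold, 164 lost the call, 12 gained one and 4 changed sign. The sign changes were values that did not pass: Mmp2 at day 7 was 0.043 without SV129 control replicates 5 and 6, 0.078 with C57BL/6J arrays alone and -0.044 to 0.005 without 1 array (0.005 without SV129 control replicate 6), and Timp3 at day 7 was -0.143 with SV129 arrays alone.

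Of the 42 members, 20 passed with ROSI and 17 to 23 when 1 array was left out. A change of at least 1.5-fold left 11 (959 higher and 341 lower of all clusters). SV129 arrays alone left 0 (1 of all clusters), and the latter without ROSI replicates 1 and 6, 11 (1872 and 870). These replicates were left out for lying nearest the controls, so the choice itself favours a higher count. At day 7 16 passed (13 to 18 without 1 array), 6 of them by at least 1.5-fold (197 higher and 121 lower of all clusters). Between ROSI and NE 23 passed (21 to 24), 9 with 1.5-fold (755 higher and 327 lower of all clusters). With SV129 arrays alone 0 passed (0 of all clusters), and 12 with these without ROSI replicates 1 and 6 (1682 and 889). With NE 0 to 1 passed, and counts over all clusters without 1 array are not given here. For strain 6 passed (3 to 6), 1 with 1.5-fold (Timp3, against 33 higher and 18 lower of all clusters). With day 7 controls alone 0 passed (0 of all clusters), and 2 without SV129 control replicates 5 and 6 (359 and 146). For the day by strain term 4 passed (4 to 4), against 499 positive and 275 negative calls over all clusters. With array weights 8 passed (950 and 1054 over all clusters), and 0 with all 35 arrays in 1 model (47 and 48). Both other interactions stayed at 0 to 0. The cause of these differences was not tested.

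The labels do not say whether equal replicate numbers mark pairs. Deviations of 28 pairs with a shared number correlated from -0.306 to 0.301, with 4 over 0.1. Pairs with different numbers ranged from -0.403 to 0.444. These correlations cannot decide whether shared numbers stand for shared mice or batches, since deviations within such small groups are tied to each other. With the number as a replicate block, 14 members passed with ROSI (0 higher, Mmp28 being lost, against 1978 higher and 885 lower of all clusters), 10 at day 7 (3 higher and 7 lower, against 766 and 649), 0 between ROSI and NE (0 of all clusters), 0 with NE (0), and 3 for day by strain (197 and 48 of all clusters), and the other interactions stayed at 0.

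Low signal limits 5 clusters, which were below the lower quartile on all 35 arrays. A further 7 were dim on some: Mmp24 on 31, Mmp21 on 10, Adamts16 on 9, Adamts18 and Mmp16 on 3 each, Mmp8 and Adamts19 on 2 each. For Mmp8 (6.20 and 5.97 in SV129) and Mmp16 (6.27 and 6.36 in SV129, 6.33 in C57BL/6J) these were ROSI arrays, so their falls with ROSI reach the dim range.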
